A study of Mus musculus with 7 samples.

Results

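Mouse genes for the proteins of the mitochondrial ribosome were described over the differentiation of an erythroid line with and without the zinc chelator DTPA. They were taken by symbol, as Mrpl or Mrps followed by a number and at most 1 letter, which gave 78 of the 55367 symbols measured. By symbol, 49 belong to the large subunit and 29 to the small subunit. A further 6 symbols of the same form are marked as pseudogenes and were left out.

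This ribosome builds the few proteins that the mitochondrial genome encodes, which are core subunits of the respiratory chain. All of its proteins are encoded in the nucleus, made in the cytosol and imported, and they join ribosomal RNA that mitochondria transcribe themselves. The large subunit joins amino acids and releases the new protein through an exit tunnel to the inner membrane, and the small subunit holds the messenger RNA and reads its codons. Erythroid precursors need respiration and mitochondrial heme synthesis while they fill with hemoglobin, and they lose their mitochondria at the end of maturation.

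G1E-ER4 cells are mouse erythroid progenitors that lack the transcription factor GATA1 and carry GATA1 joined to an estrogen receptor domain, so estradiol starts their maturation. All 7 libraries came from this 1 line, kept with erythropoietin and Kit ligand. The groups were 3 libraries at 24 h of 100 nM β-estradiol with 50 µM DTPA, a zinc chelator given from the start of differentiation; 3 control libraries at 24 h of β-estradiol without DTPA; and 1 library of cells at 0 h, before β-estradiol and without DTPA. The labels call the replicates biological and do not say whether cultures were started separately, so p-values measure the spread between these libraries, which may in part be technical. Changes in RNA per cell and in the make-up of the cell population cannot be told apart in such bulk samples.

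Levels were deposited as TPM, reads per gene length brought to a common total, so they are shares of a library's RNA. The depth, estimated from the smallest steps between values, was 19.8 to 21.2 M gene reads under DTPA, 17.7 to 18.6 M in control and 17.6 M at 0 h. Over 10 erythroid markers the summed level was 62790 to 80980 TPM under DTPA, 52140 to 56340 TPM in control and 10270 TPM at 0 h. The sum hides mixed directions. Of these 10 markers, 5 were called lower and 3 higher under DTPA than in control (limma, adjusted p under 0.05). Their log2 fold changes ran from -3.38 to 2.12, with a median of -0.24. Over all tested genes 36.4% were lower and 21.7% higher. Over 9 megakaryocyte markers the summed level was 42.4 to 51.5 TPM under DTPA, 9.08 to 12.7 TPM in control and 39.5 TPM at 0 h, with Gp1bb, Ppbp and Vwf listed at 0 in all 7 libraries. Over 10 myeloid and mast cell markers it was 3.62 to 5.80 TPM under DTPA, 3.41 to 3.86 TPM in control and 14.9 TPM at 0 h, with Mpo, Lyz2, Itgam and Ly6g listed at 0 in all libraries. Over 9 lymphoid markers it was 2.56 to 2.82 TPM under DTPA, 0.23 to 1.06 TPM in control and 0.21 TPM at 0 h; at 24 h all of it was Cd79a, which was higher under DTPA without overlap, and Cd3e and Ms4a1 were listed at 0. Over 6 stromal markers it was at most 0.19 TPM. The part of these markers in the results was not tested.

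Together, the transcripts of both subunits made up less of the RNA under DTPA than in control, and less in control than at 0 h. Large subunit genes summed to 2664, 2656 and 2677 TPM under DTPA, to 3451, 3471 and 3295 TPM in control and to 5647 TPM at 0 h. Small subunit genes summed to 991, 978 and 1012 TPM under DTPA, to 1339, 1306 and 1195 TPM in control and to 2327 TPM at 0 h. For both subunits every DTPA library lay below every control library, and every control library lay below the 0 h library. The large subunit averaged 2666 ± 10.7 TPM under DTPA and 3406 ± 96.3 TPM in control (SD, n = 3 each), a ratio of 0.783, and the small subunit averaged 993.6 ± 17.2 TPM under DTPA and 1280.0 ± 75.2 TPM in control, a ratio of 0.776. The sum of the large subunit over that of the small subunit was 2.68 ± 0.04 under DTPA and 2.66 ± 0.09 in control, values that differed by less than their spread, and 2.43 at 0 h. Among single genes the level averaged from 2.40 TPM (Mrps6) to 192.5 TPM (Mrpl24) under DTPA, from 2.92 TPM (Mrps35) to 281.9 TPM (Mrpl41) in control, and from 5.82 TPM (Mrpl33) to 448.4 TPM (Mrpl12) at 0 h, with Mrpl53 left aside.

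**Figure D1:**
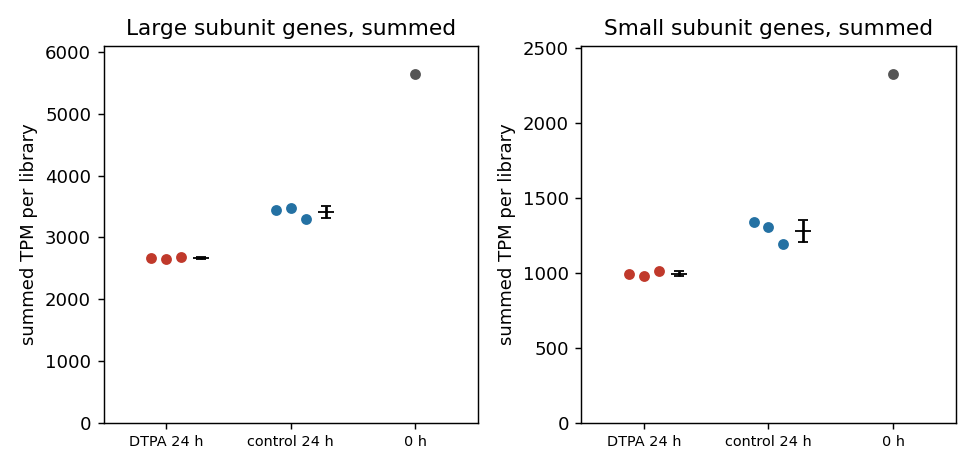
Summed TPM of the 49 large subunit genes (left) and the 29 small subunit genes (right) in each library (y axes from 0), with DTPA at 24 h, control at 24 h and 0 h along the x axis. Points are libraries and the bars beside them show the mean ± SD of 3; the DTPA libraries lie below the control libraries, and the 0 h library lies above both.

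Mrpl53, whose protein sits at the stalk of the large subunit, was listed at 0 in 6 libraries and at 0.18 TPM in DTPA replicate 3, so it was not tested. Of its exon bases, 88.0% are shared on the same strand with another annotated gene, Gm42688 (GENCODE M21, GRCm38), and reads there cannot be assigned to 1 of the 2 genes. The other 77 genes were tested, and 76 of them had at least 100 estimated reads in every library. The exception was Mrps6, with as few as 20 reads. Among all members, 13 share at least 10% of their exon bases with a gene on the other strand and 5 with a gene on the same strand, and whether the counting used strand is not known from the sources at hand. The coefficient of variation between replicates had a median of 5.79% under DTPA and 5.68% in control.

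The first comparison asks how these transcripts differed between DTPA and control at 24 h. No group had zinc added back, so an effect of zinc loss cannot be told from other effects of DTPA. Under DTPA, 52 of the 77 genes fell, 4 rose and 21 did not pass (limma on log2(TPM + 1) in the 6 libraries at 24 h, adjusted p under 0.05). Over all 11147 genes tested, 36.4% fell and 21.7% rose. The median log2 fold change was -0.32 for the 77 genes and -0.09 over all genes tested. In the large subunit 33 of 48 fell and 4 rose, with a median of -0.32. In the small subunit 19 of 29 fell, with a median of -0.39, and 0 rose by limma, also at an unadjusted p under 0.05. The falls called ran from -1.11 to -0.15 with a median of -0.46, and 15 genes fell at least 1.5-fold. Every DTPA library lay below every control library for 55 of the 77 genes and above every control library for 4 of them, while 40.3% of all genes were separated downward and 24.7% upward. With libraries rescaled by their median ratio to a common profile, which put the median of all genes at -0.0007, 43 of the 77 fell and 4 rose, and with quantile normalization 41 fell and 6 rose. Over all genes the split of 2415 higher and 4059 lower calls then became 3051 and 3313, or 3201 and 3106.

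**Figure D2:**
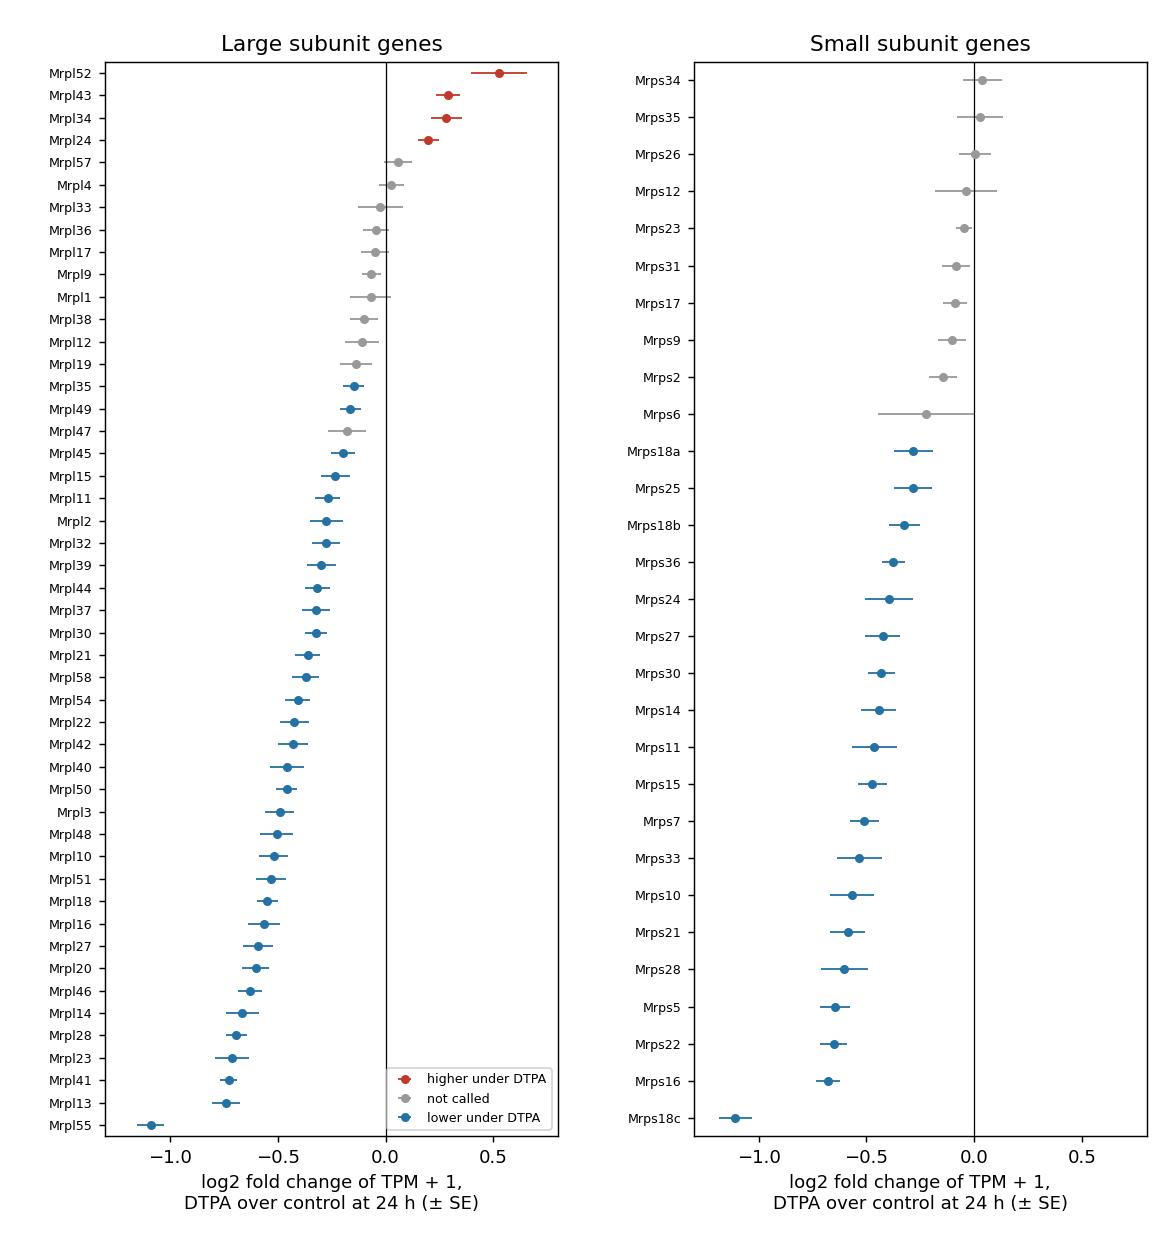
Log2 fold change of TPM + 1, DTPA over control at 24 h, for the 48 tested large subunit genes (left) and the 29 small subunit genes (right), 1 gene per row, with bars for the SE of the fit. Most points lie left of 0; Mrpl55 and Mrps18c lie farthest left, and the 4 genes called higher are Mrpl52, Mrpl43, Mrpl34 and Mrpl24.

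The largest fall under DTPA was in Mrps18c, which encodes the bacterial-type S18 protein of the small subunit. Its level was 22.1, 21.97 and 18.4 TPM under DTPA, against 45.9, 44.6 and 47.2 TPM in control, and 38.1 TPM at 0 h. The DTPA libraries thus lay below both the controls and the 0 h library, whereas the controls lay above the 0 h library. The log2 fold change against control was -1.11 ± 0.08 (SE; limma adjusted p = 1.46e-05). A same-strand neighbour, Gm43511, shares 23.2% of its exon bases. Its 2 paralogs in the mouse also fell, by less: Mrps18b changed by -0.32 ± 0.07 (adjusted p = 0.00594, limma), and Mrps18a, whose protein lies in the large subunit in mitochondrial ribosome structures, by -0.28 ± 0.09 (limma adjusted p = 0.0298). The call on Mrps18a was lost with either rescaling and without DTPA replicate 1, DTPA replicate 2, control replicate 1 or control replicate 2 (limma adjusted p = 0.0655 to 0.0892 without 1 of these libraries), and also with a replicate block (0.0678), without the mean trend (0.0525), without the filter on low values (0.0712) and without globin and mitochondrially encoded genes (0.0545).

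Mrpl55, a protein of the large subunit, fell nearly as far. It stood at 77.4, 86.6 and 75.4 TPM under DTPA, against 179.7, 164.4 and 167.9 TPM in control, and at 91.3 TPM at 0 h. Its DTPA libraries were close to the 0 h library while its controls were far above both. The log2 fold change was -1.09 ± 0.06 for DTPA over control (limma adjusted p = 5.8e-06), and 0.89 ± 0.09 for control over 0 h.

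Mrpl41, a protein that mitochondria added to the large subunit, showed the same order of the groups at a higher level. It had 164.2, 171.0 and 174.3 TPM under DTPA, 280.1, 290.0 and 275.7 TPM in control, and 217.6 TPM at 0 h. The spread within each group was small beside the distance between them, and the log2 fold change was -0.73 ± 0.04 (limma adjusted p = 4.48e-06). Mrpl28, another abundant member, averaged 157.5 ± 5.74 TPM under DTPA and 255.2 ± 13.0 TPM in control, with 223.0 TPM at 0 h, and fell by 0.69 ± 0.05 on the log2 scale. Mrps21, the most abundant small subunit gene at 24 h, averaged 147.7 ± 5.53 TPM under DTPA and 223.3 ± 25.1 TPM in control, with 190.3 TPM at 0 h. In all, 9 genes had their lowest mean under DTPA and their highest in control: Mrpl14, Mrpl27, Mrpl28, Mrpl41, Mrpl51, Mrpl55, Mrpl58, Mrps18c and Mrps21. Of these, only Mrpl28, Mrpl41 and Mrpl55 passed in control against the 0 h library (limma, adjusted p under 0.05, no minimum fold). For Mrpl51 and Mrpl58 the control and 0 h libraries overlapped, with log2 fold changes of 0.06 and 0.03. Most genes had another order, with DTPA lowest, control between and 0 h highest in 57 of 77. These orders were not counted over all tested genes. The median log2 fold change of all tested genes was also below 0 in both steps, at -0.09 for DTPA against control and -0.22 for control against 0 h.

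The remaining falls of the first 6 in rank were in Mrpl13 and Mrpl23, both with bacterial relatives. Mrpl13 had 8.46, 7.96 and 8.84 TPM under DTPA, 14.8, 14.4 and 15.1 TPM in control, and 20.4 TPM at 0 h, a log2 fold change of -0.74 ± 0.07 against control (limma adjusted p = 5.28e-05). Mrpl23, which lines the mouth of the exit tunnel, had 9.90, 10.4 and 11.5 TPM under DTPA, 17.7, 19.5 and 16.9 TPM in control, and 31.9 TPM at 0 h, a change of -0.71 ± 0.08 (limma adjusted p = 0.000192). For both, the 3 groups did not overlap and followed the commoner order.

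The 4 genes that rose under DTPA all belong to the large subunit. Mrpl52, a mitochondrial addition, had 70.9, 58.8 and 62.6 TPM under DTPA, against 47.3, 50.7 and 35.8 TPM in control, and 314.2 TPM at 0 h. Both groups at 24 h were thus far below 0 h, with DTPA the higher of the 2 by 0.52 ± 0.13 (limma adjusted p = 0.00993). Mrpl34, a small protein with a bacterial relative, likewise had 98.3, 94.6 and 92.4 TPM under DTPA, 87.0, 76.0 and 71.9 TPM in control, and 306.1 TPM at 0 h (0.28 ± 0.07, limma adjusted p = 0.011). Mrpl24, an exit tunnel protein, was the exception in direction, being lowest at 0 h. It had 190.7, 190.4 and 196.3 TPM under DTPA, 170.6, 156.8 and 175.8 TPM in control, and 142.2 TPM at 0 h (0.20 ± 0.05, limma adjusted p = 0.01). Mrpl43 had 94.1, 106.1 and 99.4 TPM under DTPA, 84.6, 82.0 and 77.7 TPM in control, and 95.7 TPM at 0 h (0.29 ± 0.06, limma adjusted p = 0.00319), so that DTPA and 0 h overlapped. Mrpl24 shares 26.3% of its exon bases with Rrnad1, and Mrpl43 shares 33.4% with Twnk, both on the other strand.

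**Figure D3:**
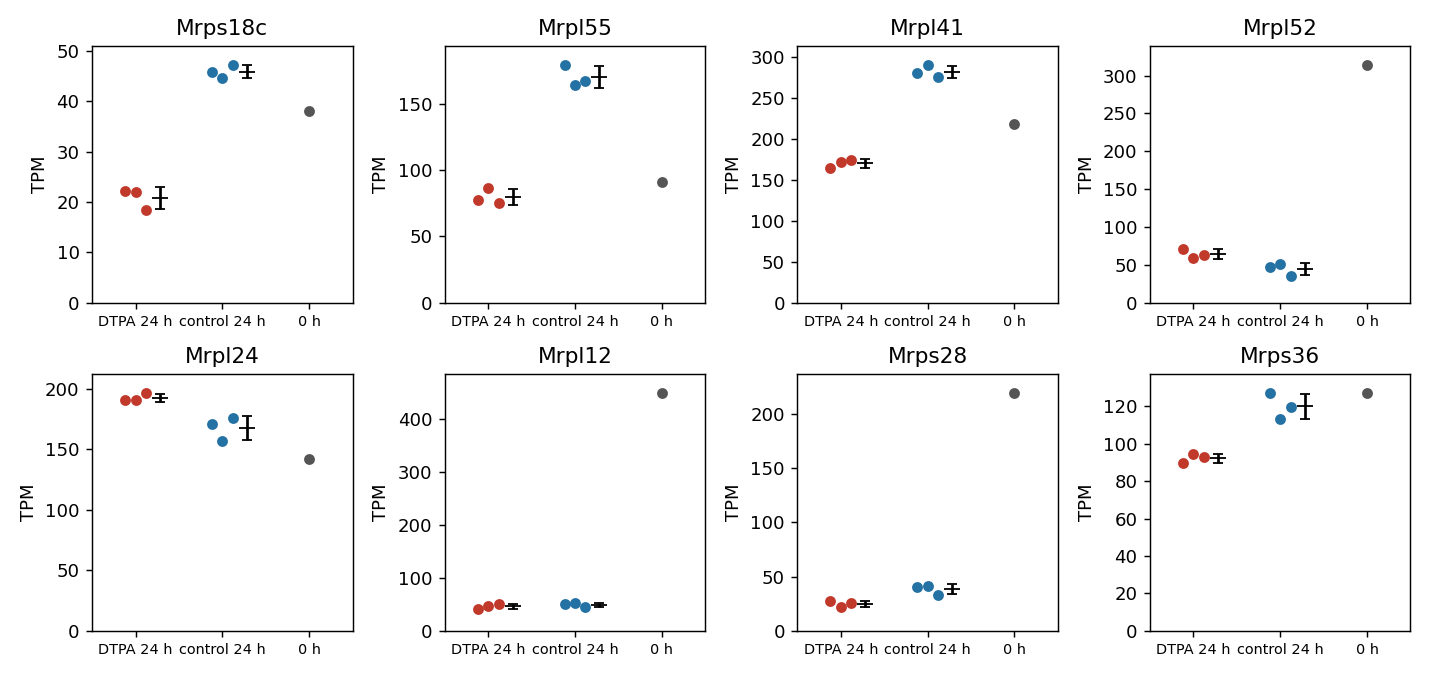
TPM of 8 genes in each library (y axes from 0), with DTPA at 24 h, control at 24 h and 0 h along the x axis; points are libraries and bars the mean ± SD of 3. Mrps18c, Mrpl55 and Mrpl41 are lowest under DTPA, Mrpl52 and Mrpl24 are higher under DTPA than in control, and Mrpl12 and Mrps28 are far lower at 24 h than at 0 h.

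Promoter sequence was at hand for 69 of the 78 genes (RefSeq, GRCm38.p6, 250 bases before to 50 after the gene's start). It was searched on both strands for 4 motifs: the ETS core CCGGAAG, the NRF1 motif, GCGCA followed directly by TGCGC, the YY1 motif AAGATGGCG and the E-box CACGTG. A gene with more than 1 window was counted as holding a motif if any of its windows did. The ETS core was found in 26 of the 69 genes (37.7%), against 9.9% of all 27025 genes with a window. The YY1 motif was in 8 (11.6%, against 1.6%), the NRF1 motif in 3 (4.3%, against 1.1%) and the E-box in 5 (7.2%, against 8.1%). Among genes with 1 window, the ETS core was in 24 of 66 members (36.4%), against 9.1% of all such genes. Neither comparison set was limited to genes that passed the expression filter, as nearly all members did. Split by the call under DTPA, the ETS core was in 16 of 48 genes that fell, 6 of 16 not called and 3 of 4 that rose. The untested Mrpl53 held it too. A match is a run of letters and not a bound site, and a window with none says nothing of a factor.

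The windows of 5 genes are printed 5′ to 3′ on the gene's strand, in lower case with the motif matches in capitals. They include the 2 genes that fell most under DTPA (Mrps18c and Mrpl55) and the gene that rose most (Mrpl52). The others are Mrpl12, which fell most in control against 0 h, and Mrps11, which lies head to head with Mrpl46. All 5 lie on the plus strand.
Mrps18c, chr5:100798509-100798808: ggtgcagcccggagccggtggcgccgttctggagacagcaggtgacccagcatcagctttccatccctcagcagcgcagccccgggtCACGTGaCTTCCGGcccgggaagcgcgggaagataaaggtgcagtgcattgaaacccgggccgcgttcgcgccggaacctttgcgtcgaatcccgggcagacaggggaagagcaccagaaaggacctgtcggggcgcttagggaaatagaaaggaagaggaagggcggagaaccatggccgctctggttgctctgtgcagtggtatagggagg
Mrpl55, chr11:59202236-59202535: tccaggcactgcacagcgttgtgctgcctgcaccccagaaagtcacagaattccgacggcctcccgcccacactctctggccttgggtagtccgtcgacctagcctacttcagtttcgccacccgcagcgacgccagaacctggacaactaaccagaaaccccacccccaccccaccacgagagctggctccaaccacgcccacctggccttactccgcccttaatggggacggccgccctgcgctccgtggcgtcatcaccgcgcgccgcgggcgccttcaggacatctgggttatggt
Mrpl52, chr14:54426659-54426958: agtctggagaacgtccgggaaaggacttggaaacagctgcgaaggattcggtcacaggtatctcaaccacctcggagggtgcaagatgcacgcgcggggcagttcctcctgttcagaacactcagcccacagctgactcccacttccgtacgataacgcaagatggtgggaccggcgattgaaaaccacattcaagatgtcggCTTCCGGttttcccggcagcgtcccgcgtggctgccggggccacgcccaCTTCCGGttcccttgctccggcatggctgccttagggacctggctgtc
Mrpl12, chr11:120484387-120484686: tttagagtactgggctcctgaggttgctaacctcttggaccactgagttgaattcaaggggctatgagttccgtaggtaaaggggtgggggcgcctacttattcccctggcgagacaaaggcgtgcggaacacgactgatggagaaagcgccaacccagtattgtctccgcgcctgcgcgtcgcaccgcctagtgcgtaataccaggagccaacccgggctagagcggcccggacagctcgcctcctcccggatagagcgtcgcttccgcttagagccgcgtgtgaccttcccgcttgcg
Mrps11, chr7:78782881-78783180: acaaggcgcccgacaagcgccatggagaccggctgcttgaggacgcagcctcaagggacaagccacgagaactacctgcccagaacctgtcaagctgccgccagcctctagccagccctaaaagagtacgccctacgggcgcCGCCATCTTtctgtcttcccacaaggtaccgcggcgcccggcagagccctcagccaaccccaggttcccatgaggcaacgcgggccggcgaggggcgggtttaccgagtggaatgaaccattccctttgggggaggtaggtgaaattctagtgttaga
In Mrps18c an E-box and a reversed ETS core stand 1 base apart, the first at -163 from the start. In Mrpl52 the reversed ETS core occurs at -47 and at 3. The windows of Mrpl55 and Mrpl12 hold none of the 4 motifs. The window of Mrps11 holds a reversed YY1 motif at -108, and 141 of its bases are also the window of Mrpl46 on the other strand. Mrps11 and Mrpl46 share 173 exon bases too, and they fell under DTPA by 0.46 and 0.63 on the log2 scale. In the 5 windows no match of a motif overlapped a match of another.

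The genes were also grouped by place in the ribosome, in short lists that need not hold every gene of a place. The counts by place are to be read against the shares that fell under DTPA. Those were 67.5% of all 77 members and 36.4% of all tested genes. Of the stalk, which recruits the translation factors, 3 of 4 tested genes fell under DTPA: Mrpl10 by 0.52 ± 0.07, Mrpl54 by 0.41 ± 0.06 and Mrpl11 by 0.27 ± 0.06 on the log2 scale, the last not called with quantile normalization (limma adjusted p = 0.0982). The fourth, Mrpl12, the stalk protein proper, did not pass (-0.11 ± 0.08, limma adjusted p = 0.281). In the central protuberance, which faces the small subunit, 5 of the 6 genes listed fell, from -0.63 for Mrpl46 to -0.46 for Mrpl40. Mrpl27, Mrpl18 and Mrpl48 lay between. Mrpl38 there was at -0.10 and did not pass. The pseudogene symbol Mrpl48-ps was listed at 31.3 to 43.5 TPM under DTPA, 46.9 to 54.1 TPM in control and 74.0 TPM at 0 h, above Mrpl48 itself at 7.30 ± 0.24 TPM under DTPA, 10.8 ± 0.73 TPM in control and 16.0 TPM at 0 h, and reads of near-identical stretches may be split between both. Of the 5 exit tunnel genes, Mrpl23, Mrpl22, Mrpl44 and Mrpl45 fell and Mrpl24 rose, as given above. Mrpl45, which holds the ribosome to the inner membrane, changed by -0.20 (limma adjusted p = 0.0189), a call lost without DTPA replicate 2, DTPA replicate 3 or control replicate 2 (limma adjusted p = 0.0613 to 0.0673), under both rescalings and without globin and mitochondrially encoded genes.

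Mrpl32 and Mrpl36 are relatives of bacterial zinc ribbon proteins, and they differed in their calls. Mrpl32 had 34.2, 29.5 and 29.8 TPM under DTPA, 37.3, 38.1 and 38.4 TPM in control, and 42.8 TPM at 0 h, and it fell by 0.28 ± 0.06 (limma adjusted p = 0.00736). Under the median and quantile rescalings this call was lost (limma adjusted p = 0.0535 and 0.121). Mrpl36 had 79.6, 73.9 and 71.8 TPM under DTPA, 77.5, 82.3 and 72.9 TPM in control, and 83.2 TPM at 0 h, with overlapping groups and a change of -0.05 ± 0.06 (limma adjusted p = 0.543). The difference between both genes was not tested.

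In the small subunit, Mrps7 of the head fell by 0.51 ± 0.07 and Mrps10 by 0.57 ± 0.10. Mrps12, which takes part in decoding, had 106.6, 116.6 and 119.4 TPM under DTPA, 131.8, 134.5 and 90.8 TPM in control, and 111.6 TPM at 0 h. Control replicate 3 lay below all DTPA libraries for this gene, and the change did not pass (-0.04 ± 0.14, limma adjusted p = 0.837). Without that library Mrps12 was called lower under DTPA, at -0.22 (limma adjusted p = 0.0174). Mrps6 and Mrps35, the least abundant small subunit genes at 24 h, did not pass either (-0.22 and 0.03). Mrps30, which is placed in the large subunit in structures despite its symbol, fell by 0.43 ± 0.06.

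A pair of members have known work beside or apart from the ribosome. Mrpl58, a peptidyl-tRNA hydrolase that frees stalled ribosomes, averaged 25.4 ± 1.40 TPM under DTPA, 33.1 ± 1.60 TPM in control and 32.4 TPM at 0 h, and it fell by 0.37 ± 0.06 against control (limma adjusted p = 0.00134). Mrps36, named as a ribosomal protein but known as a component of the oxoglutarate dehydrogenase complex, had 89.6, 94.4 and 92.7 TPM under DTPA, 126.9, 113.2 and 119.6 TPM in control, and 127.0 TPM at 0 h. Its fall under DTPA was 0.37 ± 0.05 (limma adjusted p = 0.000512), near the median of the small subunit, whereas the controls stayed near the 0 h library. Among genes with a bacterial relative 30 of 46 fell under DTPA, and among those added in mitochondria 22 of 31 did, with medians of -0.38 and -0.32; both counts are near the 67.5% over all 77 members, against 36.4% over all tested genes.

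The second comparison asks how the same transcripts differed between control at 24 h and 0 h. No culture was held for 24 h without β-estradiol, so time in culture and β-estradiol cannot be told apart. In control at 24 h, 32 of 77 genes fell against 0 h and 0 rose (limma in all 7 libraries, adjusted p under 0.05 and a log2 fold change of at least 1 in size; also 0 higher at an unadjusted p under 0.05 with that fold). Over the 11906 genes tested, 24.3% fell and 15.1% rose. The median log2 fold change was -0.77 for the 77 genes, against -0.22 over all genes tested. In the large subunit 16 of 48 fell with a median of -0.64, and in the small subunit 16 of 29 fell with a median of -1.18. The 0 h group is 1 library, assumed in the fit to vary like the other groups. Rescaling by the median ratio changed the split over all genes from 1794 higher and 2894 lower to 2061 and 2435, and quantile normalization changed it to 2228 and 2367.

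Mrpl12, the stalk protein whose promoter window is printed with that of Mrps18c, fell most. It had 50.5, 52.9 and 45.6 TPM in control, against 448.4 TPM at 0 h, where it was the most abundant gene of either subunit (-3.15 ± 0.12, limma adjusted p = 3.87e-06). With DTPA it had 42.0, 46.4 and 49.8 TPM, which overlapped the controls. Mrps28 of the small subunit had 40.8, 41.8 and 33.4 TPM in control and 219.1 TPM at 0 h (-2.48 ± 0.17), and with DTPA it was lower again, at 27.5, 21.9 and 26.0 TPM. Mrpl42 had 11.2, 12.4 and 12.03 TPM in control and 78.1 TPM at 0 h (-2.62 ± 0.09). Falls of over 2 on the log2 scale were also seen in Mrpl52 (-2.80), Mrps6 (-2.63), Mrps27 (-2.47), Mrps35 (-2.46), Mrpl50 (-2.26) and Mrps18b (-2.25). Mrps6 shares 19.9% of its exon bases with Gm49711 and 10.4% with Slc5a3, both on the same strand. On the other strand a gene shares 30.5% of the exon bases of Mrps18b, 24.2% of Mrps27 and 13.1% of Mrpl12. Mrps18b averaged 21.4 ± 0.98 TPM in control and 105.2 TPM at 0 h, while Mrps18a and Mrps18c did not pass.

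By the adjusted p alone, 56 genes were lower and 5 were higher in control than at 0 h, where 43.6% and 30.9% of all genes were. Those 5 were Mrpl33, Mrpl55, Mrpl41, Mrpl24 and Mrpl28, all of the large subunit. Mrpl33, chosen here after its values were seen, had 13.0, 12.7 and 11.7 TPM in control and 5.82 TPM at 0 h, a log2 fold change of 0.98 ± 0.16 just under the fold required (limma adjusted p = 0.00185), and 14.4, 10.98 and 11.5 TPM with DTPA. By place, the stalk held 1 fall among 4 tested genes, the central protuberance 3 of 6, the exit tunnel 2 of 5 and the zinc ribbon pair 0 of 2, beside 41.6% of all 77 members and 24.3% of all tested genes (limma; also 0 at an unadjusted p under 0.05 with that fold).

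**Figure D4:**
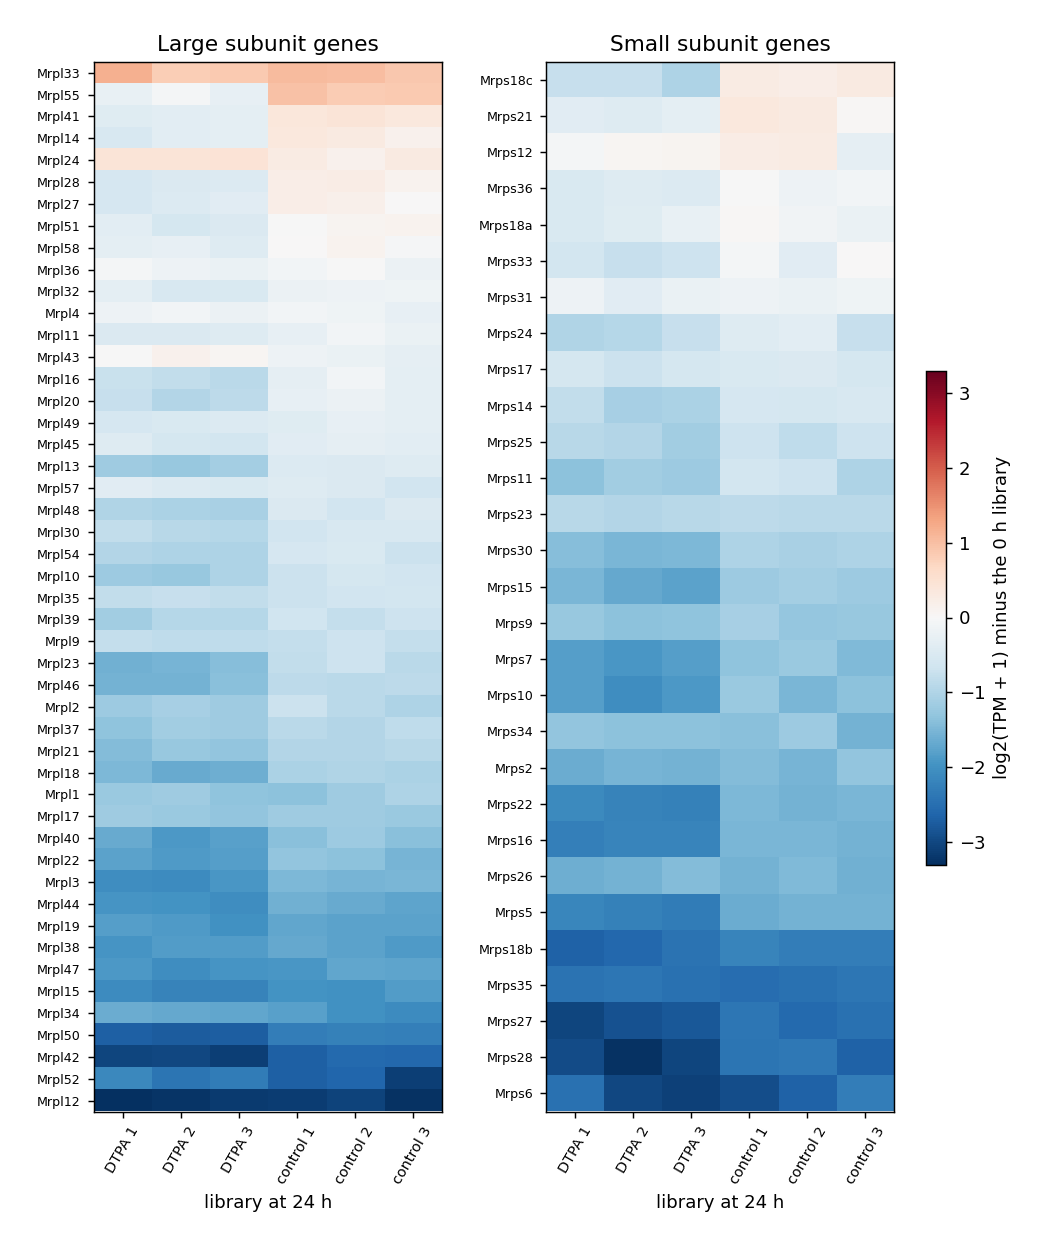
Log2(TPM + 1) of each of the 77 genes in each library at 24 h, minus its value in the 0 h library, as colour (scale at the right), for the large subunit (left) and the small subunit (right). Columns are the 3 DTPA and the 3 control libraries, and rows are sorted by the difference of control from 0 h; most rows are lower than 0 h in all 6 libraries, with Mrpl12 at -3.15 in control as the extreme.

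The third comparison, DTPA at 24 h against 0 h, joins both changes and shares its libraries with the other comparisons, so its values are not a separate test. Under DTPA 43 of 77 genes fell against 0 h and 0 rose (limma; also 0 at an unadjusted p under 0.05 with a log2 fold of 1), where 27.6% and 15.7% of 12016 tested genes did. The median was -1.16, against -0.30 over all genes, with 25 of 48 in the large subunit and 18 of 29 in the small. The largest falls were in Mrpl12 (-3.26), Mrps28 (-3.08), Mrpl42 (-3.05), Mrps27 (-2.89), Mrps6 (-2.85) and Mrpl50 (-2.72). By the adjusted p alone 70 were lower and 2 were higher, Mrpl33 and Mrpl24, against 46.6% and 29.9% of all genes. With the median rescaling the split over all genes of 1888 higher and 3318 lower calls became 2397 and 2680, and with quantile normalization 2525 and 2634.

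The ribosome also holds proteins whose symbols do not follow the Mrp pattern, and all 5 of those listed fell under DTPA against control. The share that fell was 67.5% over the 77 members and 36.4% over all tested genes. Dap3, of the small subunit, averaged 21.99 ± 0.69 TPM under DTPA and 34.8 ± 1.58 TPM in control, with 55.1 TPM at 0 h (-0.64 for DTPA over control). Ptcd3 (-0.45), Chchd1 (-0.36), Gadd45gip1 (-0.31) and Aurkaip1 (-0.29) fell by less. The call on Gadd45gip1 was lost under both rescalings, without globin and mitochondrially encoded genes, without the mean trend, without the filter on low values and without each DTPA library, control replicate 1 or control replicate 2 (limma adjusted p = 0.0829 to 0.115 without 1 of these), and those on Chchd1 and Aurkaip1 were lost with quantile normalization (limma adjusted p = 0.0699 and 0.0634). Aurkaip1 averaged 161.1 ± 1.01 TPM under DTPA and 198.0 ± 11.8 TPM in control, both above the 124.8 TPM at 0 h.

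Of 25 tested assembly factors, 7 rose and 6 fell under DTPA against control, and the median was -0.07, where 21.7% of all tested genes rose and 36.4% fell. Rbfa, which matures the small subunit RNA, averaged 139.3 ± 6.22 TPM under DTPA and 68.8 ± 3.95 TPM in control, with 140.0 TPM at 0 h (1.01 ± 0.06, limma adjusted p = 4.6e-06). Mettl15, a methyltransferase of that RNA, averaged 1.21 ± 0.33 TPM under DTPA and 5.36 ± 0.84 TPM in control, with 4.69 TPM at 0 h (-1.53 ± 0.16). Eral1 and Tfb1m, which bind and methylate the same RNA, fell by 0.60 and 0.52. In control against 0 h, 10 of the 25 fell and 0 rose (limma; also 0 at an unadjusted p under 0.05 with that fold), where 24.3% and 15.1% of all tested genes fell and rose, led by Rcc1l (-2.92), Mrm3 (-2.56), Mpv17l2 (-1.50) and Noa1 (-1.46).

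Among 15 translation factors, 7 fell and 2 rose under DTPA against control, beside 36.4% and 21.7% of all tested genes. Mtrf1l, a release factor, fell by 0.61, and Slirp, which stabilizes mitochondrial messenger RNA, fell by 0.54, while Oxa1l, which inserts new proteins into the inner membrane, rose by 0.60 and Mtrf1 by 0.45. The call on Mtrf1 was lost without DTPA replicate 1 or control replicate 2 (limma adjusted p = 0.0587 and 0.0562) and without the filter on low values (0.0578). In control against 0 h 7 of 15 fell, with Tsfm at -2.13, Tufm at -1.84, Mtrf1 at -1.63 and Gfm1 at -1.58, the first 2 and the last being elongation factors. The share of all tested genes that fell there was 24.3%.

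Of 16 genes for mitochondrial transcription and its regulators, 3 rose and 2 fell under DTPA, a share of falls below that of all tested genes (36.4%). Nrf1, a nuclear activator of genes for mitochondrial proteins, had 7.47, 8.14 and 8.18 TPM under DTPA, against 20.2, 19.6 and 20.0 TPM in control, and 21.5 TPM at 0 h. Its controls and its 0 h library were close, and the DTPA libraries were apart from both (-1.23 ± 0.06, limma adjusted p = 3.06e-06). Gabpb1, a subunit of an ETS factor that binds many such promoters, averaged 12.7 ± 0.24 TPM under DTPA and 23.5 ± 1.51 TPM in control, with 18.5 TPM at 0 h (-0.83 ± 0.06). Myc averaged 30.6 ± 1.43 TPM under DTPA and 14.9 ± 0.16 TPM in control, both far below the 473.6 TPM at 0 h, and Yy1 rose by 0.31 under DTPA. Against 0 h, 9 of the 16 fell in control, with Myc at -4.90, the coactivator Pprc1 at -3.82, the mitochondrial RNA polymerase Polrmt at -2.19 and the helicase Twnk at -2.10. Over all tested genes 24.3% fell in that comparison.

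Other gene families of ribosomes and respiration are given for scale, each by its own values. Their counts are to be read against the shares over all tested genes. Those shares were 36.4% lower and 21.7% higher for DTPA against control, and 24.3% lower and 15.1% higher for control against 0 h. Cytosolic ribosomal protein genes moved opposite to the mitochondrial ribosomal genes under DTPA, with 70 of 82 tested higher than control and 1 lower, and a median of 0.43. Nuclear-encoded respiratory chain genes had 57 of 81 lower and 5 higher than control, with a median of -0.36. The 5 higher calls became 8 with the median or quantile rescaling or without globin and mitochondrially encoded genes, and 3 without control replicate 2. The 57 lower calls became 48 with the median rescaling and 47 with quantile normalization, with medians of -0.26 and -0.21. For the cytosolic ribosomal genes, the 70 higher calls became 73 with the median rescaling and 64 with quantile normalization. In control against 0 h the median was -0.91 for the cytosolic ribosomal genes, with 33 of 82 called lower, and 0.02 for the respiratory chain genes, with 8 called lower and 8 called higher. With the median rescaling these became 19 lower for the cytosolic ribosomal genes, and 3 lower and 9 higher for the respiratory chain genes. The 13 mitochondrially encoded messenger RNAs are the templates of these ribosomes. They summed to 129090 ± 9502 TPM under DTPA and 118060 ± 8684 TPM in control (SD, n = 3 each), with 128980 TPM at 0 h. The difference of their sums between DTPA and control was about the size of the SD within each group. Under DTPA 1 of 13 was called higher than control (0 to 4 over the alternatives) and 0 lower. Without DTPA replicate 1, and also without control replicate 1, 1 of 13 was called lower.

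**Figure D5:**
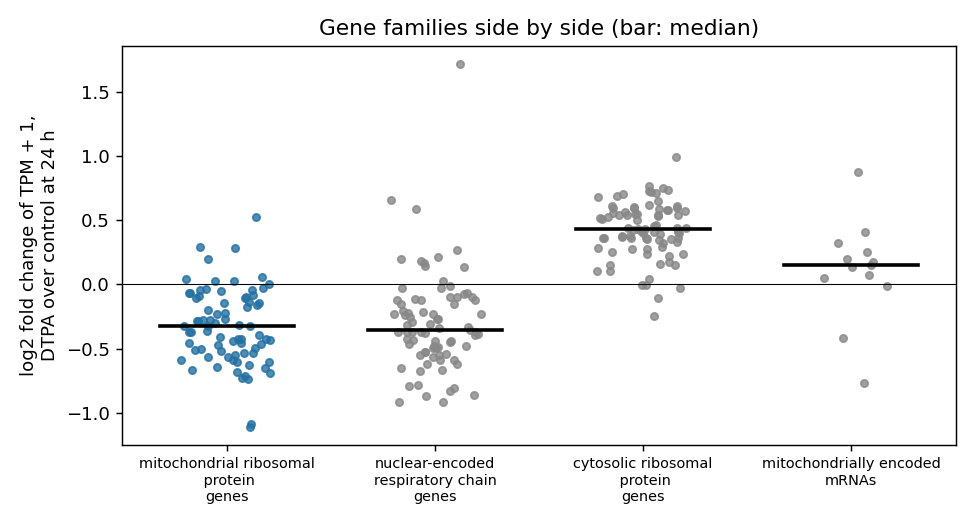
Log2 fold change of TPM + 1 for the tested genes of the families named on the axis, DTPA over control at 24 h (y axis); each point is a gene and the bar is the median. Under DTPA the mitochondrial ribosomal genes have a median of -0.32 and the respiratory chain genes of -0.36, the cytosolic ribosomal genes of 0.43.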

How the data were processed

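Polyadenylated RNA of 7 libraries was sequenced after preparation with a TruSeq stranded mRNA kit, per the labels' protocols. The submitters' processing notes name Trimmomatic 0.33, FastQC, HISAT2 2.1.0, featureCounts and edgeR, with build mm10. Not given in the sources used here: annotation release, gene lengths, strand setting and handling of multiply matching reads. The authors deposited TPM per gene symbol, which sums to the same total in each library, so that rising abundant genes lower the values of others. Values on repeated symbols (114 symbols on 234 rows, no member among them) were summed.

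Depth was estimated from the steps between low values, multiplied by exon lengths of GENCODE M21 (GRCm38); TPM itself keeps no depth, and no counts were tested. Tests on log2(TPM + 1) over all genes used limma (version 3.58.1, R 4.3.3), eBayes with a mean trend and two-sided p-values, called at 0.05 after Benjamini-Hochberg adjustment. This scale understates changes of low genes. DTPA against control used the 6 libraries at 24 h, keeping a gene that reached 1 TPM in 3 or more of them. The comparisons with 0 h used 7 libraries in 3 groups, keeping a gene whose mean reached 1 TPM in either group, and calls there also needed a log2 fold change of at least 1 in size. The fitting step was tested on simulated data with few changed genes and the same noise in every library. Such data do not cover a change in most genes or a 0 h library with another spread. Libraries of a group differed by more than counting noise, so none was counted as a copy of another.

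Members, gene lists, tests and named genes were chosen with earlier results of these data known. Named genes were in each comparison the called members ranked 1 to 6 by rise and by fall, the 5 highest and the 5 lowest by mean level, members of fixed structural roles, and up to 4 called genes of each neighbouring list. Alternatives were other pseudocounts, filters and scalings, a fit without the mean trend, a replicate block, no minimum fold and leaving out each library.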

Additional observations from a re-analysis of the deposited data

How the results depend on the processing

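Each mitochondrial ribosomal gene called in a comparison kept its direction under all alternatives run. For DTPA against control, 41 of the 52 falls and 4 of the 4 rises were called under every alternative; the count of falls ran from 41 (quantile normalization) to 52, and leaving out 1 library gave 47 to 49. For control against 0 h 28 of 32 falls were called throughout, and for DTPA against 0 h 33 of 43. With the adjusted p alone the counts against 0 h became 56 lower and 5 higher for control and 70 lower and 2 higher for DTPA. Control against 0 h gave 1 higher gene with a pseudocount of 0.1, 2 with median-of-ratios scaling, 1 with quantile normalization and 1 without globin and mitochondrially encoded genes, and DTPA against 0 h gave 1 under each of these; leaving out a library gave 0 to 1 for both. Replicate numbers are shared between the groups at 24 h, but same-numbered libraries did not deviate together (correlations of -0.01, 0.024 and -0.01). The labels do not say whether a number marks a shared culture or day. The fit with the replicate as a block called 50 lower and 4 higher, and over all genes 3888 lower and 2274 higher.

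Scaling moved the median of all genes for DTPA against control from -0.09 to -0.0007 (median-of-ratios) or 0.01 (quantile), and that of the 77 genes from -0.32 to -0.23 or -0.21; the cause was not tested. Ratios of summed TPM moved as follows. For the large subunit, DTPA over control became 0.839 (median-of-ratios) and 0.816 (without globin and mitochondrially encoded genes), control over 0 h 0.675 and 0.625, and DTPA over 0 h 0.566 and 0.510. For the small subunit, median-of-ratios gave 0.832, 0.615 and 0.512 in the same order, and DTPA over 0 h was 0.461 without globin and mitochondrially encoded genes and 0.403 with Mrps30 and Mrps18a counted in the large subunit and Mrps36 left out. Among the genes chosen for naming, the sign turned in some that were not called; unnamed genes near 0 are not listed. For DTPA against control these were Mrpl12 (0.0453) and Mrpl38 (0.0428) with quantile normalization, Mrpl36 at 0.051, 0.1036 and 0.0129 and Mrps12 at 0.0587, 0.1323 and 0.0206 (median-of-ratios, quantile, without globin and mitochondrially encoded genes), and without 1 library Mrps12 (-0.2211 to 0.06) and Mrps35 (-0.0077 to 0.0604). For control against 0 h they were Mrpl36 (0.0566), Mrps18a (0.0614) and Mrps36 (0.076) with median-of-ratios, Mrps18a (0.0077) with quantile, and, without 1 library, Mrpl58 (-0.0073 to 0.0581) and Mrps12 (-0.0287 to 0.2524). For DTPA against 0 h they were Mrpl55 (0.0646) and Mrpl36 (0.1108) with median-of-ratios, Mrpl36 (0.0439) with quantile and Mrps12 (-0.0012 to 0.0795) without 1 library. Depth limits Mrps6 most, with 20 to 36 estimated reads at 24 h.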
